A study of Rattus norvegicus with 6 samples.

Results

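The enzymes described here break down amino acids in the kidney or turn them into other small molecules, and were taken as a list of 42 genes sorted by pathway. The list covers the breakdown of glycine, tyrosine, tryptophan, proline, branched-chain and sulfur amino acids, the synthesis of arginine and creatine, amino acid and hydroxy acid oxidases, and Miox, which breaks down inositol. Probes were assigned through the transcript accession on the array. In this way 41 of the 42 genes were measured, with 65 probes, among 12298 named genes and 32956 transcripts tested in all. Gldc, the glycine decarboxylase subunit of the glycine cleavage system, had no probe matched to it.

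Renal cortex was profiled from male Sprague-Dawley rats bought at 5 weeks of age and kept on a basal diet. In the TBBC group, 3 rats received thiobis(6-tert-butyl-m-cresol) in its 4,4' form, a sulfur-bridged phenolic antioxidant abbreviated TBBC, at 300 mg/kg/day for 4 weeks. In the vehicle group, 3 rats received corn oil for 4 weeks. Each rat gave 1 one-colour Agilent array, and the replicates are biological per the design text. The comparison asks how transcript levels in the cortex differ after TBBC dosing. Vehicle 1 to 3 and TBBC 1 shared a slide and a scan, while TBBC 2 and 3 were on another slide, so slide and treatment cannot be told apart for TBBC 2 and 3, and TBBC 1 alone can be set against the vehicle arrays within a slide.

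The proximal tubule reabsorbs filtered amino acids and is also a site where they are metabolised. Branched-chain amino acids are first transaminated to keto acids, which the mitochondrial branched-chain keto acid dehydrogenase commits to breakdown, and separate mitochondrial enzymes then carry the leucine, valine and isoleucine carbons onward. The kidney makes arginine from citrulline through argininosuccinate synthase and lyase, and makes guanidinoacetate, the precursor of creatine, which the liver methylates. Several amino acid oxidases sit in peroxisomes, where they release hydrogen peroxide.

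Levels are given as the log2 of the processed signal over the array's 75th percentile of non-control probes, and differences are TBBC minus vehicle on that log2 scale with the standard error of the fit. A level compares arrays for 1 probe and not 1 gene with another. All 65 probes lay well above background on all 6 arrays, so no enzyme owes its place among the tested genes to one group. On the arrays as a whole, 67.1% to 70.9% of probes lay well above background and no spot was saturated.

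Most of the enzymes had lower mean levels in TBBC cortex, by small amounts, and none passed the test across all transcripts. The mean was below that of vehicle for 35 of 41 enzymes and above it for 6, against 53.5% of all transcripts below. In limma's test with Benjamini-Hochberg adjustment over all transcripts, 0 of 41 passed an adjusted p of 0.05 in either direction, where 0.276% of all transcripts passed as lower and 0.255% as higher. Limma on median signals with normexp background correction and quantile normalization called 5, all lower, where 1.03% of all transcripts passed as lower. With a trended, robust prior limma called 7, all lower, where 1.41% of all transcripts did. At an unadjusted p under 0.05, 19 of 41 (46.3%) were lower, against 10.4% of all transcripts, and 2 of 41 (4.88%), Hpd and Amt, were higher, against 9.55%. The list was chosen with earlier results of these data known, so these shares and those below describe it and are not a test.

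The arrays of the groups did not overlap for 22 of 41 enzymes with TBBC lower (53.7%), against 15.2% of all transcripts, and for 3 with TBBC higher (7.32%), against 13.1%. These 3 were Asl (on the brighter of its 2 probes only), Hpd and Amt. For the other 16 enzymes the groups overlapped. Gatm, Pipox, Hao2 and Aadat were at least 2-fold lower in TBBC, against 2.18% of all transcripts, and no enzyme was 2-fold higher, against 1.62%. The median log2 difference over the 41 enzymes was -0.30, with a range from -1.44 to 0.35, against a median of -0.02 over all transcripts. The median enzyme deviation from the vehicle mean was -0.32, -0.22 and -0.33 in TBBC 1, 2 and 3, against 0.02, -0.05 and 0.05 in vehicle 1, 2 and 3. Within the shared slide, TBBC 1 lay below all 3 vehicle arrays for 28 of 41 enzymes (68.3%), against 35.9% of all transcripts.

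**Figure D1:**
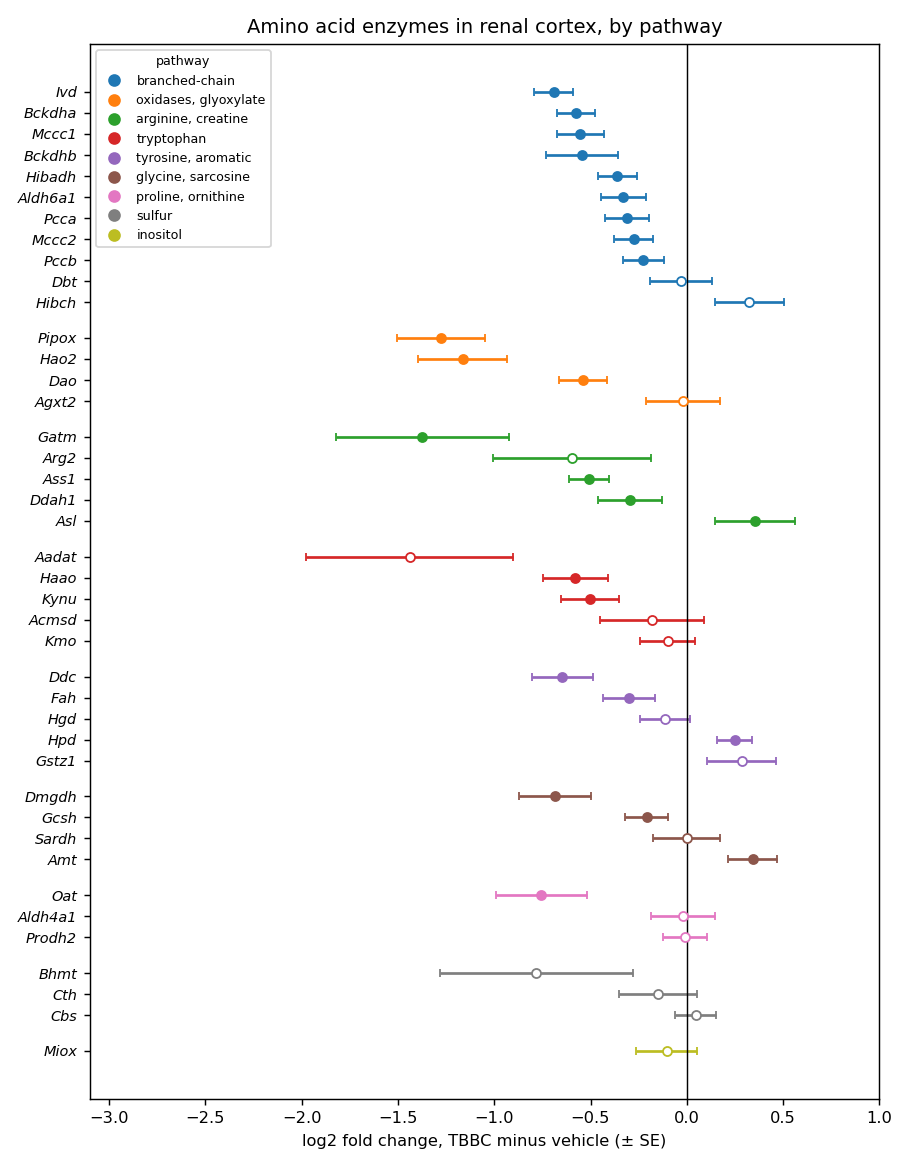
Log2 difference, TBBC minus vehicle, of each of the 41 measured enzymes, ordered by pathway, with the standard error of the fit as bars. Filled points have no overlap between the 3 TBBC and the 3 vehicle arrays and open points overlap; most points lie left of 0, from -1.44 for Aadat to 0.35 for Asl, and none passed the adjusted threshold.

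Spread was larger in TBBC across the arrays as a whole, for 74.3% of all transcripts, and the enzymes shared this, with a larger standard deviation in TBBC for 29 of 41. The median standard deviation of an enzyme was 0.22 among TBBC rats and 0.09 among vehicle rats, against 0.23 in TBBC and 0.13 in vehicle over all transcripts. No single TBBC rat set the low end, since the lowest of the 3 was TBBC 1 for 13 enzymes, TBBC 2 for 11 and TBBC 3 for 17. By the compartment in which each enzyme is known to work, the 3 peroxisomal enzymes had a median difference of -1.16 and all 3 were lower without overlap, where 15.2% of all transcripts were. Of 23 mitochondrial enzymes, 13 were lower without overlap (median -0.31), and of 15 cytosolic enzymes, 6 were lower and 2 were higher without overlap (median -0.18); the 2 higher are near the 13.1% share of all transcripts. These medians describe the enzymes and were not tested against each other.

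Branched-chain enzymes were the largest pathway, and 9 of its 11 members were lower in TBBC without overlap, against 15.2% of all transcripts, with a median difference of -0.33. The median deviation from vehicle was -0.27, -0.27 and -0.43 in TBBC 1, 2 and 3. At an unadjusted p under 0.05, 8 of the 11 were lower, against 10.4% of all transcripts, and 0 were higher, against 9.55%. Bckdha and Bckdhb encode the subunits of the decarboxylase component of the branched-chain keto acid dehydrogenase. Bckdha had log2 levels of 3.19, 3.22 and 3.16 in TBBC 1 to 3, against 3.76, 3.70 and 3.84 in vehicle 1 to 3, a difference of -0.58 ± 0.10 (adjusted p = 0.0677). Bckdhb had log2 levels of 3.77, 3.35 and 3.11 in TBBC, against 3.97, 3.83 and 4.07 in vehicle, a difference of -0.54 ± 0.19 (adjusted p = 0.190). The 3 TBBC values of Bckdha lay close together (SD 0.03), while TBBC 1 was the highest TBBC array for Bckdhb, close below vehicle 2. Dbt, the transacylase component of the same complex, showed overlapping groups and a difference of -0.03 ± 0.16. Its dimmer probes gave -0.20 and -0.27, also with overlapping groups.

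Ivd, the isovaleryl-CoA dehydrogenase of leucine breakdown, had the smallest p of all 41 enzymes. Its log2 levels were 3.51, 3.44 and 3.58 in TBBC 1 to 3, against 4.13, 4.21 and 4.25 in vehicle 1 to 3, which is 1.61-fold lower (-0.69 ± 0.10, adjusted p = 0.0517). All TBBC arrays lay well below the lowest vehicle array, and the deviation of TBBC 1 alone was -0.69. The next leucine step is 3-methylcrotonyl-CoA carboxylase, whose subunits are Mccc1 and Mccc2. Mccc1 had log2 levels of 4.37, 4.58 and 4.67 in TBBC, against 5.07, 5.02 and 5.20 in vehicle (-0.55 ± 0.12, adjusted p = 0.0960). Mccc2 had 3.58, 3.62 and 3.51 in TBBC, against 3.88, 3.76 and 3.90 in vehicle (-0.28 ± 0.10, adjusted p = 0.205). The groups were apart for both subunits.

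For valine, Hibch hydrolyses 3-hydroxyisobutyryl-CoA, Hibadh oxidises the product and Aldh6a1 acts on the methylmalonate semialdehyde that follows. Hibadh had log2 levels of 5.61, 5.68 and 5.51 in TBBC 1 to 3, against 5.91, 5.99 and 5.98 in vehicle 1 to 3 (-0.36 ± 0.10, adjusted p = 0.136). Aldh6a1 had log2 levels of 1.60, 1.64 and 1.39 in TBBC, against 1.95, 1.84 and 1.82 in vehicle (-0.33 ± 0.12, adjusted p = 0.193). Both were lower on every TBBC array. Hibch, in contrast, had a difference of 0.32 ± 0.18 with overlapping groups, and it was the single branched-chain enzyme with a higher TBBC mean. On this probe the deviation of Hibch was -0.04 in TBBC 1, and TBBC 2 and 3, on the other slide, carried the higher mean. The probes differed for TBBC 1. On another Hibch probe (difference 0.35) TBBC 1, at -0.10, also lay above vehicle (-0.28 to -0.18), and the groups were apart. On the remaining probe (difference 0.30) TBBC 1, at -0.76, lay below vehicle (-0.68 to -0.67).

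Propionyl-CoA carboxylase takes in the propionyl-CoA from valine and isoleucine, and Pcca and Pccb encode its subunits. Pcca had log2 levels of 3.56, 3.82 and 3.75 in TBBC 1 to 3, against 4.05, 3.95 and 4.05 in vehicle 1 to 3 (-0.31 ± 0.11, adjusted p = 0.207). Pccb had log2 levels of 4.47, 4.37 and 4.39 in TBBC, against 4.66, 4.51 and 4.73 in vehicle (-0.23 ± 0.11, adjusted p = 0.303). Both lay apart, with TBBC 1 of Pccb just below vehicle 2.

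**Figure D2:**
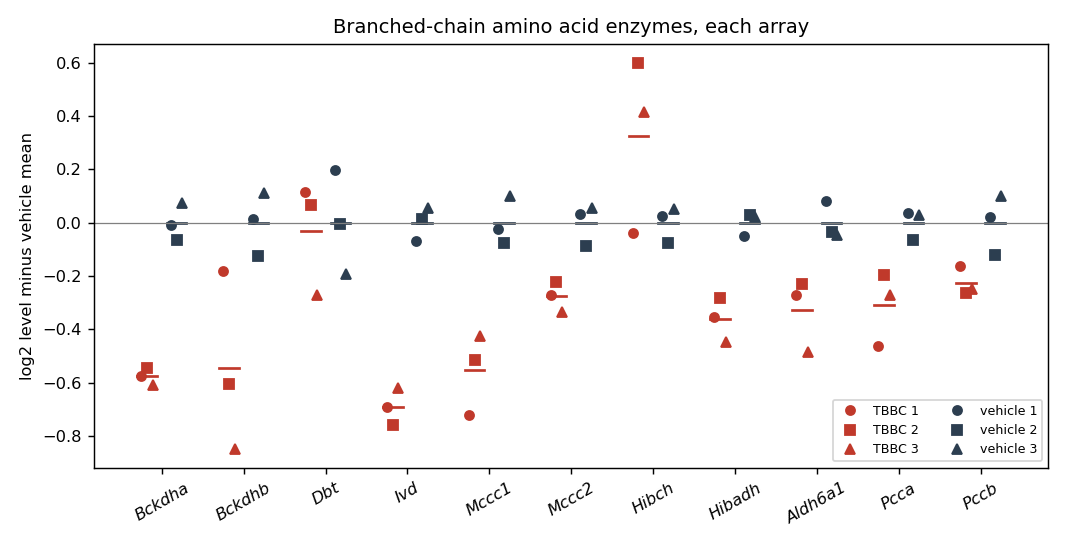
Log2 level minus the vehicle mean of the 11 branched-chain enzymes on each of the 6 arrays, TBBC left of vehicle for each gene, with bars at the group means. The 3 TBBC points lie below all vehicle points for 9 enzymes, Dbt overlaps around 0, and TBBC 2 and 3 of Hibch lie above vehicle while TBBC 1 does not.

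The peroxisomal oxidases showed some of the largest differences. Pipox oxidises pipecolic acid and sarcosine. Its log2 levels were -2.18, -2.50 and -2.55 in TBBC 1 to 3, against -1.28, -0.67 and -1.45 in vehicle 1 to 3, which is 2.42-fold lower (-1.28 ± 0.23, adjusted p = 0.0742). The difference of its other probe was -1.19. Hao2 oxidises long-chain 2-hydroxy acids. Its log2 levels were 6.89, 6.24 and 6.09 in TBBC, against 7.66, 7.37 and 7.68 in vehicle, which is 2.24-fold lower (-1.16 ± 0.23, adjusted p = 0.0843). Of the Hao2 values TBBC 1 lay nearest to vehicle, with a deviation of -0.68. Dao, the D-amino acid oxidase, had log2 levels of 4.93, 4.69 and 5.01 in TBBC, against 5.48, 5.33 and 5.43 in vehicle (-0.54 ± 0.12, adjusted p = 0.103). All 3 oxidases were lower on every TBBC array. Agxt2, a mitochondrial aminotransferase that handles glyoxylate and dimethylarginines, had a difference of -0.02 ± 0.19 with overlapping groups.

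Promoter sequences were read from RefSeq for 37 of the 42 genes on build GRCr8, as 300 bases around the annotated start. Searched on both strands, the letters CAAAGTCCA, a core form of the site of HNF4A, a transcription factor of the proximal tubule, occurred in 0.375% of 27457 promoters and in 3 of the 37 (8.11%), those of Pipox, Agxt2 and Kmo. These 3 genes differed in their values, with log2 differences of -1.28 for Pipox, -0.02 for Agxt2 and -0.10 for Kmo, a tryptophan enzyme. Their promoters are printed because they share the letters but not the difference, and that of Ivd because it had the smallest p and none of the motifs searched. Capitals mark the HNF4A letters or their reverse complement, whose first base is at -71 from the start in Pipox (chr10:63280390-63280689, minus strand), -48 in Agxt2 (chr2:61063166-61063465, plus strand) and -74 in Kmo (chr13:90089271-90089570, plus strand). The Ivd promoter is at chr3:126305334-126305633 on the plus strand.
Pipox: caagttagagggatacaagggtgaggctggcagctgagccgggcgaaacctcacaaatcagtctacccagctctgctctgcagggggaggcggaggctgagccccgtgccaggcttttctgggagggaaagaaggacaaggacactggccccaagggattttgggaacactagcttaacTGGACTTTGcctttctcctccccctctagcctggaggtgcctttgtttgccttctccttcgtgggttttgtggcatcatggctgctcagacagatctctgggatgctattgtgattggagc
Agxt2: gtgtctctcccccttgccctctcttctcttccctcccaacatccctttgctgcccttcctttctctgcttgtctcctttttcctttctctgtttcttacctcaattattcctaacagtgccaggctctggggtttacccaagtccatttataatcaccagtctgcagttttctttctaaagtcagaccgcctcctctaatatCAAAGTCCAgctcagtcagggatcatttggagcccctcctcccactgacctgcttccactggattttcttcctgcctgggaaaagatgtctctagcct
Kmo: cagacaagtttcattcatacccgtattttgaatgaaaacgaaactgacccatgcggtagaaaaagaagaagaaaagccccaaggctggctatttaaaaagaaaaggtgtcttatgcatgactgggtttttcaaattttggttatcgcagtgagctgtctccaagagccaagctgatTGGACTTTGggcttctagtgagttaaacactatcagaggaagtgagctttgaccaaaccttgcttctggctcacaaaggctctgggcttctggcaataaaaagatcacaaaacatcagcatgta
Ivd: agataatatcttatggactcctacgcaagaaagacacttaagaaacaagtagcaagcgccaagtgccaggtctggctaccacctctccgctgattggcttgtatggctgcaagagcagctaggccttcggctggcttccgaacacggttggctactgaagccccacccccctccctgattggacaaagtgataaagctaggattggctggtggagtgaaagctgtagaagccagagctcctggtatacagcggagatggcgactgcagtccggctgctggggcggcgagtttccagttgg

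Other motifs were searched in the same way. The ATF4 amino acid response element, TGATGNAAT, occurred in 1.05% of all promoters and in 0 of the 37. The GC box GGGCGGG occurred in 24.2% of all promoters and in 12 of the 37 (32.4%). By name, the HNF1 site occurred in Prodh2 alone of the 37 (0.0546% of all promoters), the Nrf2 antioxidant element in Gstz1 alone (2.91%) and the PPAR direct repeat in none (0.0583%). The 4 printed promoters held none of these other motifs. All were searched as fixed letters, and a match is not a binding site.

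The arginine and creatine group holds enzymes of synthesis (Gatm, Ass1, Asl) and of breakdown (Arg2, Ddah1). Gatm, Ass1 and Ddah1, 3 of 5, were lower without overlap, against 15.2% of all transcripts. Asl alone was higher without overlap (20%), against 13.1% of all transcripts. Gatm makes guanidinoacetate, the committed step of creatine synthesis. Its log2 levels were 4.68, 3.32 and 5.09 in TBBC 1 to 3, against 5.77, 5.46 and 5.97 in vehicle 1 to 3, which is 2.59-fold lower (-1.37 ± 0.45, adjusted p = 0.176). TBBC 2 stood far below the other TBBC arrays. Without TBBC 2 the difference was -0.85, no longer 2-fold, and the deviation of TBBC 1 was -1.06. The other Gatm probe had a difference of -1.11. Ass1 and Asl are the consecutive enzymes that make arginine from citrulline. Ass1 had log2 levels of 5.96, 5.97 and 5.79 in TBBC, against 6.45, 6.45 and 6.34 in vehicle (-0.51 ± 0.11, adjusted p = 0.0888). Asl had log2 levels of 5.68, 6.26 and 5.49 in TBBC, against 5.45, 5.44 and 5.48 in vehicle (0.35 ± 0.21, adjusted p = 0.397). On these probes Ass1 and Asl lay on opposite sides of vehicle, with TBBC 3 of Asl hardly above it. The difference for Asl was 0.13 without TBBC 2. On the other Asl probe the difference was 0.36, but the groups overlapped, with TBBC 3 (3.24) below vehicle 3 (3.30). Ddah1, which degrades methylated arginines, had log2 levels of 7.30, 7.83 and 7.84 in TBBC, against 7.95, 7.97 and 7.93 in vehicle (-0.29 ± 0.17, adjusted p = 0.384). The groups were apart on this probe, and the difference was -0.12 without TBBC 1. On another Ddah1 probe (difference -0.27) the groups overlapped, with TBBC 2 (1.38) above vehicle 2 (1.32). On the remaining Ddah1 probe (difference -0.26) they were apart. Arg2, the mitochondrial arginase, had a difference of -0.60 ± 0.41 with the groups overlapping, and of -0.14 without vehicle 3.

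In tryptophan breakdown all 5 enzymes had lower TBBC means, as did 53.5% of all transcripts. Kynu and Haao, 2 of 5 (40%), were lower without overlap, against 15.2% of all transcripts. Kynu, the kynureninase, had log2 levels of 3.60, 3.20 and 3.65 in TBBC 1 to 3, against 4.04, 4.00 and 3.92 in vehicle 1 to 3 (-0.50 ± 0.15, adjusted p = 0.151). Haao, which oxidises 3-hydroxyanthranilate, had log2 levels of 3.34, 3.69 and 3.29 in TBBC, against 3.76, 4.11 and 4.17 in vehicle (-0.58 ± 0.17, adjusted p = 0.149). Both sets were apart, TBBC 2 of Haao only just. Aadat, an aminotransferase of kynurenine and aminoadipate, had log2 levels of 3.77, 2.82 and 2.07 in TBBC, against 3.70, 4.09 and 5.18 in vehicle, 2.71-fold lower on average (-1.44 ± 0.54, adjusted p = 0.213). TBBC 1 lay above vehicle 1, and the standard deviation was 0.85 in TBBC and 0.77 in vehicle. Its other probe gave -1.49. Kmo (-0.10 ± 0.14) and Acmsd (-0.18 ± 0.27), the enzyme that diverts the pathway from NAD synthesis, had overlapping groups.

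Tyrosine breakdown was mixed. Ddc, which decarboxylates aromatic amino acids and makes renal dopamine, had log2 levels of 5.60, 5.08 and 5.50 in TBBC 1 to 3, against 6.08, 5.95 and 6.08 in vehicle 1 to 3 (-0.65 ± 0.16, adjusted p = 0.116). Hpd, which converts hydroxyphenylpyruvate to homogentisate, had log2 levels of 6.38 in each of the 3 TBBC arrays, against 6.12, 6.16 and 6.10 in vehicle (0.25 ± 0.09, adjusted p = 0.206). Of the enzymes after Hpd, Hgd, the homogentisate dioxygenase, had a difference of -0.11 ± 0.13 and Gstz1, the maleylacetoacetate isomerase, one of 0.28 ± 0.18, with overlap for both. Fah, which hydrolyses fumarylacetoacetate as the last step, had log2 levels of 4.72, 5.15 and 4.98 in TBBC, against 5.23, 5.28 and 5.26 in vehicle (-0.30 ± 0.13, adjusted p = 0.283). Ddc and Fah, 2 of 5 (40%), were lower without overlap, against 15.2% of all transcripts. Hpd, 1 of 5 (20%), was higher without overlap, against 13.1%. The difference of Fah was -0.19 without TBBC 1.

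In glycine and sarcosine breakdown, Dmgdh, which demethylates dimethylglycine, had log2 levels of 1.29, 1.43 and 0.79 in TBBC 1 to 3, against 1.88, 1.73 and 1.95 in vehicle 1 to 3 (-0.68 ± 0.19, adjusted p = 0.133). Amt, the aminomethyltransferase of the glycine cleavage system, had log2 levels of 1.81, 1.53 and 1.56 in TBBC, against 1.37, 1.16 and 1.35 in vehicle (0.34 ± 0.13, adjusted p = 0.210). Gcsh, the lipoyl carrier of the same system, had log2 levels of 3.63, 3.77 and 3.51 in TBBC, against 3.89, 3.85 and 3.79 in vehicle (-0.21 ± 0.11, adjusted p = 0.355). Amt lay above vehicle on all TBBC arrays and Gcsh below it, though TBBC 2 of Gcsh was close to vehicle 3. Sardh, the sarcosine dehydrogenase, had a difference of -0.00 ± 0.17.

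For proline and ornithine, Oat, which moves an amino group from ornithine, had log2 levels of 4.93, 4.42 and 4.88 in TBBC 1 to 3, against 5.15, 5.42 and 5.91 in vehicle 1 to 3 (-0.75 ± 0.24, adjusted p = 0.165). The groups were apart. Prodh2, a hydroxyproline dehydrogenase, had a difference of -0.01 ± 0.11 and Aldh4a1, the dehydrogenase that follows it, of -0.02 ± 0.16, both with overlap. Among sulfur amino acid enzymes, Bhmt remethylates homocysteine with betaine and had log2 levels of 4.51, 6.59 and 5.21 in TBBC, against 6.13, 6.39 and 6.14 in vehicle (-0.78 ± 0.50, adjusted p = 0.437). TBBC 2 lay above every vehicle array while TBBC 1 and 3 lay below, and the difference was -0.32 without TBBC 1 and -1.36 without TBBC 2. Cbs (0.05 ± 0.11) and Cth (-0.15 ± 0.20), the enzymes of transsulfuration, had overlapping groups. Miox had log2 levels of 8.90, 9.17 and 9.27 in TBBC, against 9.40, 8.99 and 9.28 in vehicle (-0.10 ± 0.16). Its dimmer probe gave -0.64, the widest gap between probes of an enzyme (0.53). On that probe the groups were apart, with 6.49, 6.45 and 6.89 in TBBC, against 7.29, 7.19 and 7.25 in vehicle. Of the 19 enzymes with several probes, 18 had the same sign on all; the exception was Cbs.

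**Figure D3:**
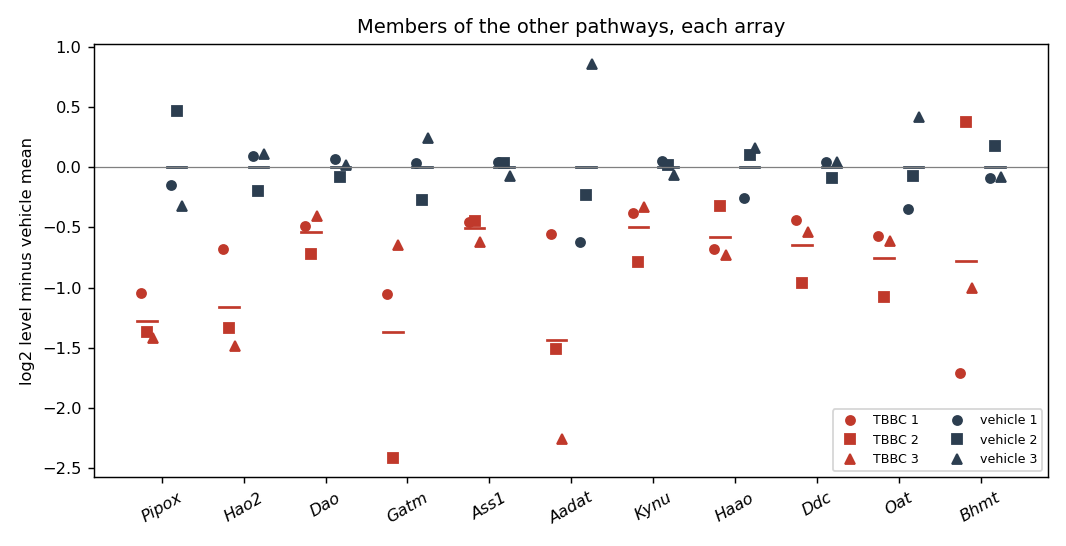
Log2 level minus the vehicle mean of 11 enzymes of the other pathways on each of the 6 arrays, TBBC left of vehicle for each gene, with bars at the group means. Pipox and Hao2 lie below vehicle on all 3 TBBC arrays, TBBC 2 is far lowest for Gatm, and Aadat and Bhmt overlap between the groups.

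**Figure D4:**
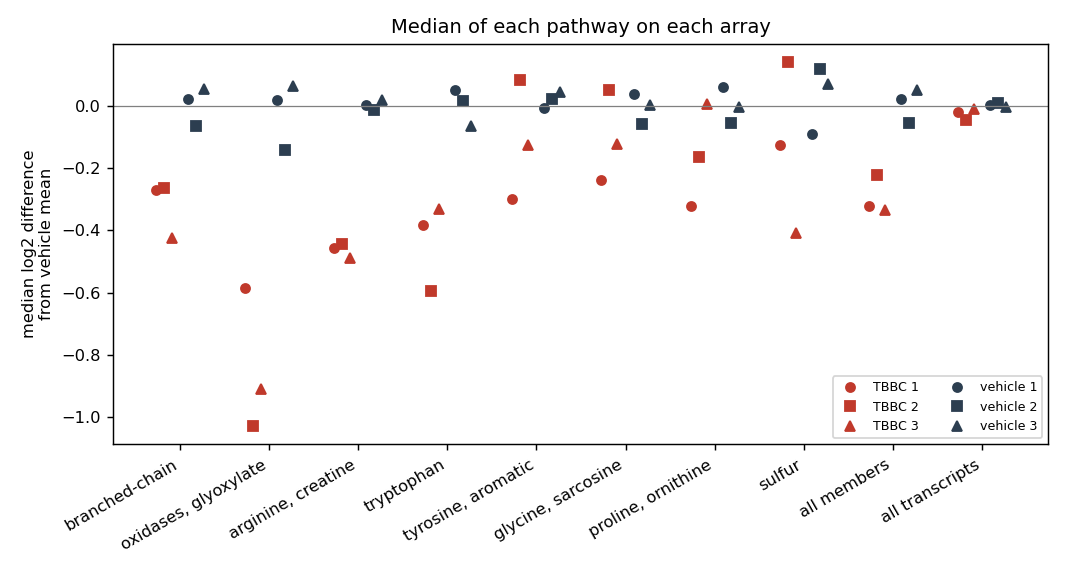
Median over the enzymes of a pathway of the deviation from the vehicle mean, on each of the 6 arrays, in log2 units, TBBC left of vehicle, with all 41 enzymes and all transcripts at the right. The TBBC points lie below all vehicle points for the branched-chain, oxidase, arginine and tryptophan enzymes. They mix with the vehicle points for the tyrosine, glycine, proline and sulfur enzymes, while all transcripts stay near 0.

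Other enzymes of the same pathways were taken from 9 lists of 84 genes, of which 71 were measured. Of these, 0 passed the adjusted threshold, 28 were lower and 3 higher at an unadjusted p under 0.05, against 10.4% and 9.55% of all transcripts. Without overlap, 33 were lower and 3 higher, against 15.2% and 13.1%, and the median difference was -0.27. In sulfur metabolism all 13 listed enzymes had lower TBBC means and 8 were lower without overlap. Bhmt2, a relative of Bhmt, had a difference of -0.57 ± 0.11, and Cdo1, the cysteine dioxygenase, one of -2.19 ± 0.50, with TBBC 2 and 3 the lowest arrays.

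In the arginine list, Agmat, which hydrolyses agmatine, had a difference of -1.08 ± 0.19, and Gamt, which completes creatine synthesis, one of -0.35 ± 0.12. In the tryptophan list, Afmid, the kynurenine formamidase, had -0.98 ± 0.14 (adjusted p = 0.0509) and Qprt, which makes nicotinate mononucleotide from quinolinate, had -0.68 ± 0.14. Bckdk, the kinase that inhibits the branched-chain dehydrogenase, had a difference of -0.65 ± 0.14, so the kinase and Bckdha were both lower without overlap. Echs1, an enoyl-CoA hydratase, had -0.41 ± 0.12.

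In the oxidase list, Hao1, the glycolate oxidase, had -1.05 ± 0.32 and Grhpr, the glyoxylate reductase, -0.44 ± 0.11. Aldh18a1, which makes the proline precursor from glutamate, ran the other way, with log2 levels of 0.31, 0.05 and -0.92 in TBBC 1 to 3, against -2.11, -2.47 and -2.16 in vehicle 1 to 3 (2.06 ± 0.33, adjusted p = 0.0595), while Pepd, a dipeptidase that releases proline, had -0.42 ± 0.10. Ftcd, of histidine breakdown, had -0.88 ± 0.17 and Dhtkd1, of lysine breakdown, -0.38 ± 0.11, and in the tyrosine list Maob, a monoamine oxidase, had -1.11 ± 0.38. In the glycine list Aldh7a1, which oxidises betaine aldehyde, had -0.30 ± 0.12 and Lias, a lipoate synthase, -0.28 ± 0.12. These genes were chosen by smallest p within each list.

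All 12 of 12 proximal tubule markers lay well above background on all arrays, as the cortex label requires. Their summed level, in units of the array's 75th percentile, was 2047 to 2607 in TBBC and 2603 to 2660 in vehicle, with TBBC 1 lowest. Their median difference was -0.25, with 0 of 12 past the threshold, against 0.531% of all transcripts in either direction. The groups overlapped for 10 of 12, and 2 (16.7%) were lower without overlap, near the 15.2% of all transcripts. The water channel Aqp1 had the smallest p of the list, with a difference of -0.77 ± 0.17 and the groups apart. Slc7a13, a transporter of the late proximal tubule, had log2 levels of 5.12, 0.65 and -0.06 in TBBC 1 to 3, against 4.50, 5.17 and 6.84 in vehicle 1 to 3 (-3.60 ± 1.41), and like Aadat its groups overlapped through TBBC 1. The other 10 markers ranged from -0.37 to 0.05. In cortex measured in bulk, fewer tubule cells and less RNA per cell cannot be told apart.

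Markers of other cells and of injury also differed between arrays. The summed level of the tubule injury list was 192 to 399 in TBBC, against 41.5 to 42.7 in vehicle. Havcr1 and Spp1, 2 of its 10 measured genes, passed the threshold as higher, against 0.255% of all transcripts. Thick ascending limb markers summed to 124 to 315 in TBBC, against 342 to 398 in vehicle, and Umod (-0.91 ± 0.33) made up most of these sums. Of the 5 markers in that list, 3 overlapped between the groups, and Ptger3 had a higher TBBC mean (0.16). Endothelium markers summed to at most 27.7 in TBBC, below every vehicle array. Of these markers, 3 of 5 (60%) were lower without overlap, against 15.2% of all transcripts. Principal cell markers summed to 114 to 144 in TBBC, against 148 to 194 in vehicle, but 4 of 5 overlapped. The sums of intercalated cell and of podocyte markers overlapped, with 1 of 5 in each list lower without overlap. Leukocyte markers summed to 89.1 to 189 in TBBC (highest in TBBC 3), against 126 to 144 in vehicle. Fibroblast markers summed to 15.2 to 38.4 in TBBC, against 19.3 to 22.9 in vehicle. Liver expresses many of these enzymes too. Liver markers summed to 22.4 to 130 in TBBC, against 8.09 to 22.7 in vehicle, but Fgb, a fibrinogen chain, carried the higher sums (4.87 ± 1.13, adjusted p = 0.104). The median difference of the list was -0.79, 5 of 7 measured liver markers had lower TBBC means, Alb among them (-3.94 ± 1.60), and 4 of 8 lay well above background on all arrays. The Alb groups overlapped, and vehicle alone ran from -3.46 to 2.39. In TBBC 3 Alb (-6.44) lay under that array's lowest signal well above background (-6.02). Of the distal convoluted tubule list, 1 marker, Pvalb, was not well above background on any array, and inner medulla markers summed to at most 1.09 in TBBC and 0.85 in vehicle. The part of these shifts in the enzyme differences was not tested.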

How the data were processed

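Total RNA of renal cortex from 6 rats was hybridised to one-colour Agilent arrays. The deposited scanner files hold spot intensity, which per the file headers Agilent Feature Extraction background-subtracted and detrended within each array (version 10.7 per the submitters' processing notes). The deposited value table holds a linear ratio; comparison with the scanner files showed processed signals over a divisor at most 0.232% above each array's 75th percentile, neither logged nor centred, with column medians of 0.1126, 0.1066 and 0.1144 in TBBC 1 to 3 and 0.1113, 0.1117 and 0.1126 in vehicle 1 to 3. Flags per spot for background, saturation and outliers come from the same deposited files.

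Of 62976 spots, 1439 controls were left out. Unversioned accessions were looked up in a RefSeq gene table (GRCr8), which named 28206 of 61537 probes (15645 genes); the file headers name another build, so no gene coordinates are given beyond the RefSeq promoters. Signals were divided by the 75th percentile and put on the log2 scale. Flagged spots (0 to 9 per array) were masked. Tested probes had to be well above background on all unmasked arrays of either group, with at least 2 such arrays in each, and a gene was its brightest probe. Groups and replicate numbers come from the sample titles. Groups were compared with limma 3.58.1 (lmFit, eBayes, two-sided) in R 4.3.3, adjusted by Benjamini-Hochberg over 32956 transcripts, at 0.05; the number of arrays limits precision. The fit was tested on simulated data. Members and lists were chosen with earlier results of these data known. Values per array are given for members lower or higher at an unadjusted p under 0.05 with groups apart, at least 2-fold different or smallest p in a pathway, and for Asl, Ddah1, Fah, Gcsh and Pccb, whose groups were apart at a higher p, added after their values were seen; from related lists, the 2 genes with smallest p, of which 1 is not reported here. Alternatives were other scalings, normexp, the value table, filters, probe summaries, variance models, slide (statmod 1.5.0), a replicate block and each array left out. The alternative named normexp used the median signal, since no mean signal column was in the files. It replaced the 75th percentile with quantile normalization after the normexp background correction.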

Additional observations from a re-analysis of the deposited data

How the results depend on the processing

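Over 20 alternatives, 777 of 820 enzyme differences kept their direction and side of the threshold, 14 passed it and 29 turned sign; 31 enzymes never turned. Against 175 transcripts called, normexp called 642, no filter on dim probes 52, eBayes with trend and robust 1087, slide as a fixed term 48 and the shared slide alone 307, and leaving out 1 array gave 6 to 274. Against 0 enzymes called, normexp called 5 (Ass1, Hao2, Bckdha, Ivd, Hibadh; 1.03% of all transcripts lower), trend and robust 7 (Ass1, Pipox, Hao2, Dao, Bckdha, Ivd, Mccc1; 1.41% lower), the filter on all 6 arrays 1 (Ivd), and leaving out 1 array 0 to 1 (Hao2, without TBBC 1). The adjusted p ranged over the alternatives from 0.0185 to 0.234 for Ivd and from 0.0409 to 0.279 for Hao2. Against 19 enzymes lower at an unadjusted p under 0.05, leaving out 1 array gave 12 (without vehicle 3) to 19, and the median difference of -0.302 became -0.366 (without TBBC 2) to -0.278 (without TBBC 1). With slide as a fixed term or the shared slide alone, where the contrast rests on TBBC 1, the sign turned for Gstz1 (-0.00717), Acmsd (0.15), Prodh2 (0.0257), Dbt (0.11) and Hibch (-0.0395), and the lower count was 13 or 17. Sardh became 0.00843 under quantile and 0.00704 under median scaling and 0.0389 under normexp, and Cbs -0.0133 as the median of its probes. Leaving out 1 array gave -0.15 to 0.13 for Agxt2, -0.11 to 0.13 for Sardh, -0.39 to 0.0246 for Acmsd, -0.0701 to 0.0675 for Prodh2, -0.16 to 0.13 for Aldh4a1, -0.13 to 0.0898 for Dbt, -0.0014 to 0.10 for Cbs and -0.22 to 0.0013 for Miox. The causes were not tested. Same-numbered arrays did not deviate together (correlations of -0.0947, 0.0326 and -0.0743), and the main fit did not pair them. This check cannot exclude a pairing, since it used deviations from the means of groups of 3 arrays. With the replicate block 0 transcripts and 0 enzymes were called, 5366 transcripts had an unadjusted p under 0.05, and 15 enzymes were lower at that level. Signal over background limited none of the enzymes.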
